A study of Mus musculus with 2 samples.

Results

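The HoxC cluster holds 9 homeobox genes on mouse chromosome 15, Hoxc13, Hoxc12, Hoxc11, Hoxc10, Hoxc9, Hoxc8, Hoxc6, Hoxc5 and Hoxc4 in that order, all transcribed from the forward strand. CTCF binding over these genes was followed in a 450 kb window, chr15:102750000-103200000 of the mm10 build, by taking every peak of the optimal list whose summit fell inside. Of 49970 optimal peaks 22 lay in the window, and 5 of those lay inside the cluster itself, from the start of Hoxc13 to the end of Hoxc4 (115.75 kb). The cluster's 9 genes were among 21866 annotated protein-coding genes.

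The tissue was whole limb of B6NCrl mouse embryos at 14.5 days of age, and the labels name no treatment and no genetic change. The 2 libraries, replicate 1 and replicate 2, were both made by chromatin immunoprecipitation with an antibody to CTCF, followed by sequencing, and form 1 group. Per the labels both came from the same pool of pulverised limbs of male and female embryos, gathered over several dissections. Differences between the libraries therefore measure the spread between preparations of 1 pool and may be technical. Read depth is unknown here. The labelled tissue could not be checked against marker genes, since these lists hold no expression values, and the pool joins forelimb and hindlimb and all cell types of the limb.

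Hox genes encode transcription factors that give cells their position along the body axis and along the limb, and their order on the chromosome follows the order in which they are used. Genes of group 13 lie at one end of each cluster and act farthest toward the tail or the tip of the limb, while genes of low group number act farther forward. CTCF is a zinc finger protein that binds a long asymmetric DNA motif, stops cohesin as it extrudes chromatin loops, and marks borders between active and silent parts of Hox clusters. Because the motif has a direction, its strand at each site is given below, and pairs of motifs that point toward each other are called convergent.

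Of the 5 sites inside the cluster 4 are shown first, since the positions and strands below refer to them. Each sequence is 99 bases of GRCm38.p6 (mm10), read 5′ to 3′ on the strand named, and capitals mark the 19-base match to a CTCF motif matrix refined on other chromosomes. The first sequence is centred on the summit and has no capitals, because it held no match.
Hoxc13 to Hoxc12 site, chr15:102932550-102932648, forward strand: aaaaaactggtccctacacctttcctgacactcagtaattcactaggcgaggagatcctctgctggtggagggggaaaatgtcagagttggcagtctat
Hoxc10 coding site, chr15:102970892-102970990, reverse strand: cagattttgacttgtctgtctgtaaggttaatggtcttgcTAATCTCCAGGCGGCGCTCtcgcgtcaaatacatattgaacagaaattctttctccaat
Hoxc9 to Hoxc8 site, chr15:102987550-102987648, forward strand: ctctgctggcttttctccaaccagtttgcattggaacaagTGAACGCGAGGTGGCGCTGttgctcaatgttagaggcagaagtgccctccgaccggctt
Hoxc5 upstream site, chr15:103013659-103013757, forward strand: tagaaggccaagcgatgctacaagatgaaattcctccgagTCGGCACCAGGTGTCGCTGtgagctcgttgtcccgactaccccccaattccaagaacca
Of the 4 matches inside the cluster, 3 lay on the forward strand, the strand from which the genes are read. The exception was the site inside the coding sequence of Hoxc10. The most frequent base at each position of the matrix reads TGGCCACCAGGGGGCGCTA, and the 3 matches shown shared 13 or 14 of its 19 bases.

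The strongest CTCF site inside the cluster lay between Hoxc9 and Hoxc8 (peak chr15:102987489-102987710, summit 102987601). Its signal, the authors' own value per peak, was 128.6 in replicate 1 and 131.3 in replicate 2 (130.0 ± 1.94, SD, n = 2). It was 261.0 in the optimal list, whose signals are those of the pooled libraries. Replicate means, SDs and overlaps, here and below, use the deposited signals before any scaling between libraries. The site lay 3006 bp upstream of the transcription start site (TSS) of Hoxc8, a gene of the thoracic region. It was also inside an intron of a long noncoding transcript of Hoxc5. In signal it ranked 3763rd of the 49970 optimal peaks, inside the strongest decile, which began at 238.5. Both libraries placed it above the next cluster site, with no overlap of their values.

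The site upstream of Hoxc10 was the second strongest (peak chr15:102966468-102966709, summit 102966589). It measured 120.1 in replicate 1 and 110.7 in replicate 2 (115.4 ± 6.62, SD, n = 2), with a pooled signal of 228.0. Hoxc10 is a gene of the lumbar spinal cord and hindlimb, and the summit lay 207 bp before its only annotated TSS. The same summit lay 854 bp before the TSS of the long processed transcript assigned to Hoxc5, so this site adjoins 2 annotated starts.

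The site upstream of Hoxc5, a gene of the neck and forelimb level, was the third (peak chr15:103013601-103013794, summit 103013698). The replicates gave 96.3 and 91.6 (94.0 ± 3.34, SD, n = 2), and the pooled signal was 186.7. Its summit lay in the 3043 bp between the coding sequences of Hoxc6 and Hoxc5, 117 bp before the TSS of the Hoxc5 coding transcript. It carried the highest motif score in the cluster, 15.03 on a log2 scale against even base frequencies, just above 14.65 at the Hoxc9 to Hoxc8 site.

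A weaker site lay within Hoxc10 (peak chr15:102970816-102971091, summit 102970954). It measured 32.0 in replicate 1 and 30.05 in replicate 2 (31.0 ± 1.35, SD, n = 2), with a pooled signal of 59.4, close to the median of 58.4 over all optimal peaks. The summit was in a coding exon, 4158 bp downstream of the TSS, and the motif match ended 122 bp before the end of the coding sequence, in the part that encodes the homeodomain. This was the only optimal peak in a coding span of the 9 genes.

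The weakest cluster site lay between Hoxc13, a gene of hair and nail, and Hoxc12 (peak chr15:102932461-102932736, summit 102932599). It measured 12.4 in replicate 1 and 10.9 in replicate 2 (11.6 ± 1.07, SD, n = 2), with a pooled signal of 24.7, which ranked 41515th. It lay 4158 bp before the TSS of Hoxc12, the same distance in bp as the Hoxc10 coding site from its own TSS, and had no motif match. Its IDR score (irreproducible discovery rate, a measure of agreement between 2 rankings of peaks) was 692 against 1000 at the other 4 cluster sites. The sources used here do not name the rankings compared, so the score is not read as agreement between the 2 libraries. The replicate ranges of this site did not overlap those of the other 4. The order of the cluster sites was therefore Hoxc9 to Hoxc8, Hoxc10 upstream, Hoxc5 upstream, Hoxc10 coding and Hoxc13 to Hoxc12 in both libraries.

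**Figure D1:**
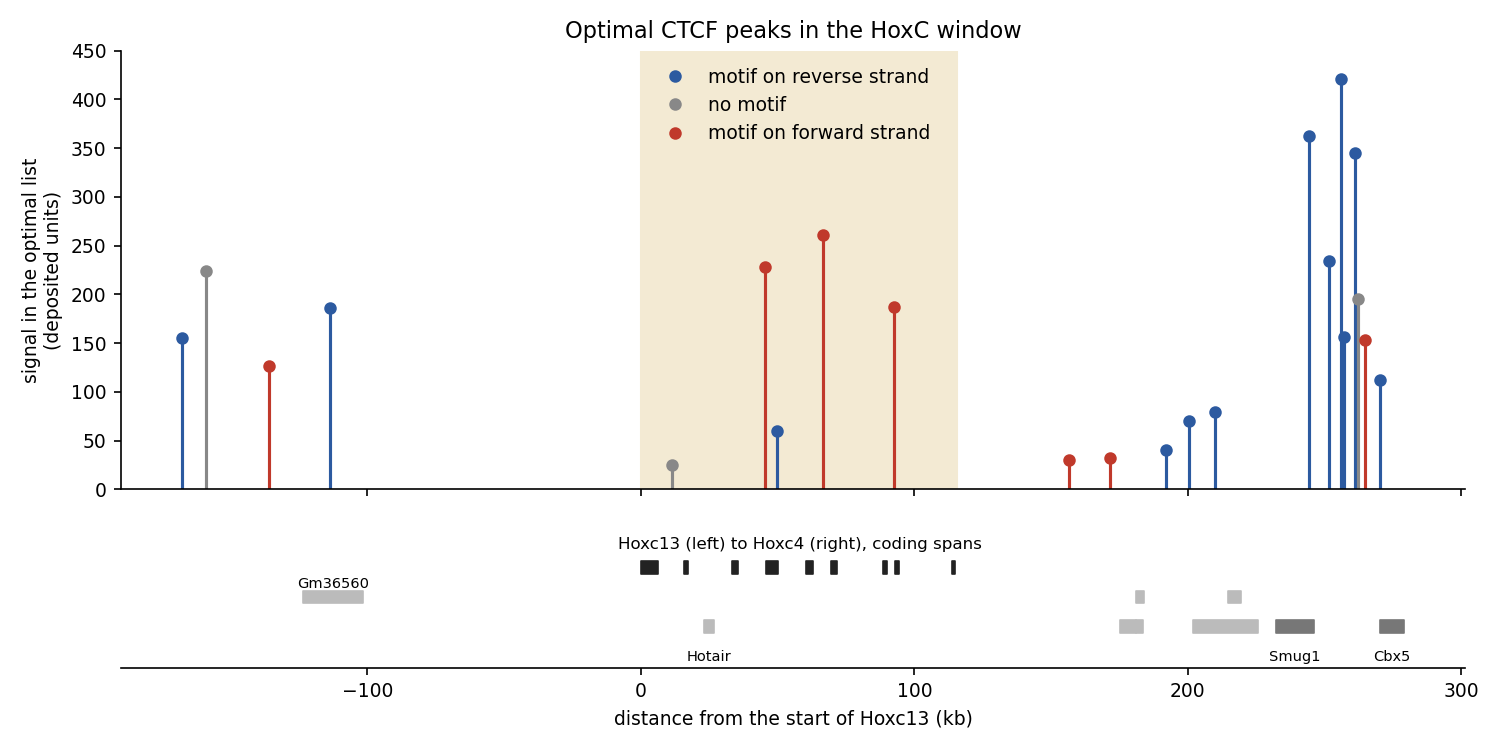
Signal of the 22 optimal peaks (vertical axis, deposited units) by distance from the start of Hoxc13 (horizontal axis, kb), with the cluster shaded and genes drawn below (black, Hoxc coding spans; dark grey, other coding genes; light grey, long noncoding RNA genes; other short RNAs not drawn). The 3 tall sites inside the cluster carry forward motifs, and 9 of the 12 motifs to the right of the cluster are reverse.

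The coding sequences of the 9 genes leave 8 intervals, and optimal peaks fell in 4 of them and were missing from the other 4. The 4 with 1 peak each were Hoxc13 to Hoxc12, Hoxc11 to Hoxc10, Hoxc9 to Hoxc8 and Hoxc6 to Hoxc5. The 4 with none were Hoxc12 to Hoxc11 (16011 bp), Hoxc10 to Hoxc9 (10580 bp), Hoxc8 to Hoxc6 (16753 bp) and Hoxc5 to Hoxc4 (19283 bp). Intervals with and without a peak thus alternated along the cluster. Over the genome 48.1% of the gaps between adjacent coding sequences held no optimal summit, and 59.6% of the gaps in the length range of the HoxC intervals, so 4 of 8 is near the background. The 4 empty intervals were the longest 4, the shortest of them at 10580 bp against 10159 bp for the longest occupied one, and they made up 62.6 of the 91.9 kb between coding sequences. In HoxA, HoxB and HoxD the longest interval of the cluster held a peak, at 17695, 75315 and 20469 bp.

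The pooled list, which holds 300000 peaks and so reaches far below the optimal list, had 37 summits inside the cluster, 32 of them outside the optimal list. Those 32 had a median signal of 7.38, near the 7.18 of the whole pooled list, which also counts the optimal peaks. Of the 32, 6 had a summit within 100 bp in both replicate lists, 21 in 1 of them and 5 in neither. These summits were thus at the level of the middle of the whole pooled list. They were not compared with pooled peaks outside the optimal list alone.

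The strongest of these weak peaks stood between Hoxc12 and Hoxc11 (summit 102943458, peak chr15:102943320-102943595), 604 bp beyond the 3′ end of Hotair, a long noncoding RNA gene read from the opposite strand. It measured 5.61 in replicate 1 and 15.2 in replicate 2, ranking 95884th and 37118th in those lists, with a pooled signal of 21.8. The libraries differed here by a log2 ratio of -1.52 after scaling, a wider gap than at any of the 22 optimal peaks. Such ratios spread more among weak peaks, with an SD of 0.76 over optimal peaks of this signal decile and 0.14 in the strongest decile. In units of that SD the gap was smaller than the 2.14 SD of the window peak at 103185975. The weak peak held a motif match on the reverse strand scoring 15.5, above each match inside the cluster. Over the genome 62.4% of pooled peaks with a signal of 20 to 25 were in the optimal list, which lacked this one. The interval is occupied when replicate 1 is left out or when the strongest 49970 pooled peaks are used, which leaves 3 empty intervals.

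The other empty intervals held lower values. Between Hoxc8 and Hoxc6 the strongest pooled summit had 12.3, with 6.05 and 8.34 in the replicates. Between Hoxc5 and Hoxc4 it had 10.2, and between Hoxc10 and Hoxc9 it had 7.76, each seen in replicate 2 alone, at 3.78 and 4.27. The interval from Hoxc10 to Hoxc9 also holds Mir196a-2, a microRNA gene that represses Hox transcripts. Mir196a-2 lay 2396 bp from the nearest optimal summit, and Mir615, within Hoxc5, lay 1212 bp from one. Hotair lay 15131 bp from the nearest optimal summit by its TSS. None of the 7 noncoding genes annotated inside the cluster, which include Gm27337, Gm27443, Gm28011 and Gm27535, contained one.

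**Figure D2:**
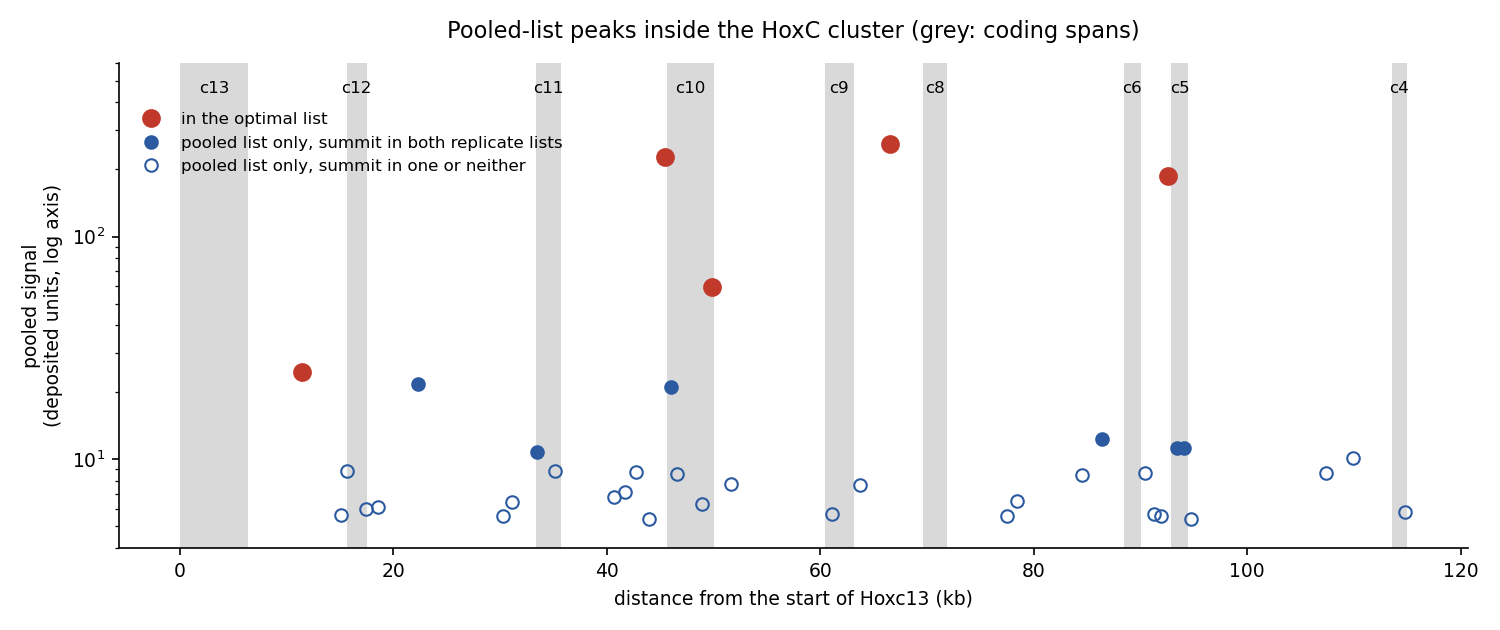
Every pooled-list summit inside the HoxC cluster by distance from the start of Hoxc13 (horizontal axis, kb) and pooled signal (vertical axis, log scale, deposited units), with coding spans in grey. The 5 optimal peaks run from 24.7 to 261.0, and the 32 others reach 21.8 at most.

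Of the 9 Hoxc genes 2, Hoxc10 and Hoxc5, had an optimal summit within 1 kb of a TSS, against 33.4% of all coding genes on the main chromosomes. Both were also the only Hoxc genes with one within 500 bp (26.8% of all genes). Within 5 kb there were 5, Hoxc5, Hoxc6, Hoxc8, Hoxc10 and Hoxc12 (52.0% of all genes). From the main coding TSS alone the count within 1 kb was also 2 (26.0% of all genes). These counts are near or below the background. The median distance from the main TSS of a Hoxc gene to the nearest optimal summit was 4158 bp.

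The genes without a promoter peak differed in how far away the nearest summit was. For Hoxc8 it was 3006 bp and for Hoxc6 4125 bp, both next to strong cluster sites. For Hoxc9 it was 6078 bp, for Hoxc13 11496 bp and for Hoxc11, a gene of the hindlimb level, 12162 bp. Hoxc4, the last gene of the cluster, was farthest at 20697 bp from its main TSS, although its other coding transcript starts 5236 bp from the Hoxc5 upstream site. Hoxc4, Hoxc6, Hoxc8 and Hoxc9 had no pooled-list summit within 1 kb of the main TSS either.

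All 22 window peaks had a summit in both replicate lists (97.5% of all optimal peaks did), and all 22 were among the strongest 49970 of both (81.2% of all). All 22 were also in the conservative list (87.6% of all), and 21 had an IDR score of 1000. The deposited −log10 q-value stood at its ceiling of 4.88 in 20 of them, so it does not rank these peaks. After scaling each library by its median over matched optimal peaks, the log2 ratio of replicate 1 to replicate 2 had a median of 0.00 over the window and ran from -0.81 to 0.52. Set beside the SD of that ratio among all optimal peaks of the same signal decile, 17 of the 22 were within 1 SD and 21 within 2 SD. The 5 cluster peaks ran from -0.11 to 0.11, each within 1 SD.

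The widest differences were on the Hoxc4 side of the cluster. The peak at summit 103185975 measured 90.5 in replicate 1 and 59.9 in replicate 2, 2.14 SD from equality. The peak at 103121633 measured 26.9 and 43.2, a difference the other way of 1.94 SD. The largest ratio, at 103092688 (11.2 and 18.7), was 1.23 SD for a peak so weak. Of the 21 neighbours in the ranking by signal, 14 kept their order in both libraries, so many neighbouring ranks are not resolved by 2 libraries. Before scaling, 9 had replicate values that did not overlap, and overlaps were not counted after scaling.

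**Figure D3:**
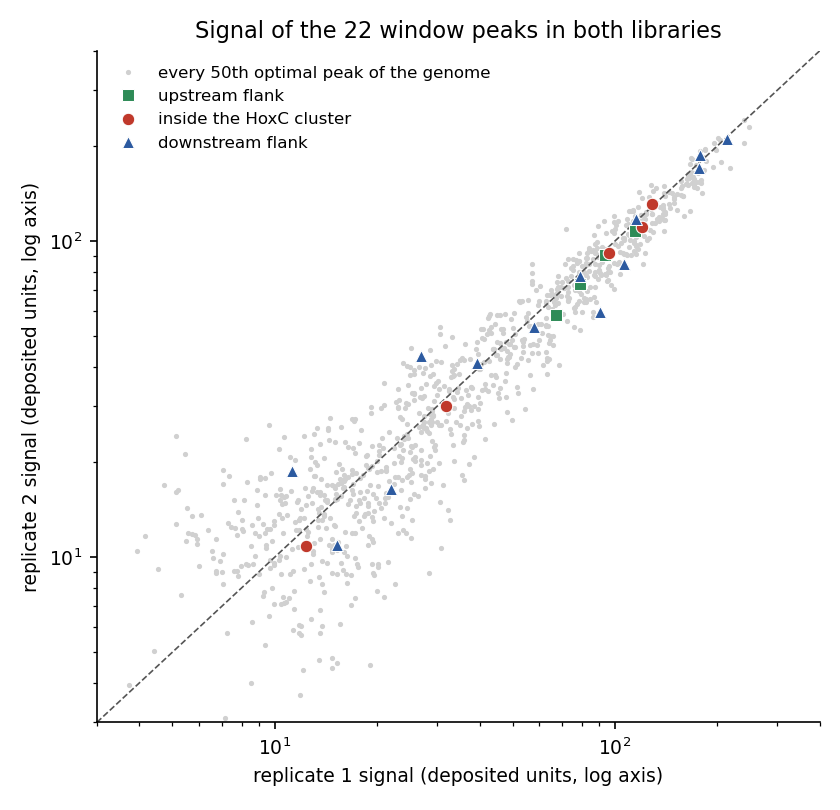
Signal in replicate 1 (horizontal axis) and replicate 2 (vertical axis) at the 22 window peaks, both in deposited units on log axes, over every 50th optimal peak of the genome in grey; the dashed line marks equal values. The 5 cluster peaks lie near the line from 12.4 and 10.9 up to 128.6 and 131.3.

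Peaks were unevenly spread over the window and sparse at the edges of the cluster. The window held 4.89 optimal peaks per 100 kb against 1.83 over the genome, and the cluster 4.32. The window value includes a group of 8 peaks within 25.7 kb at its far end, from an intron of Smug1 toward Cbx5. The window median signal was 155.6, with a range from 24.7 to 421.1, and 18 of the 22 were above the median of all optimal peaks. Distances between neighbouring summits were uneven. The widest was 125.0 kb from 102807568, upstream of the cluster, to the Hoxc13 to Hoxc12 site, so the whole of Hoxc13 lay in it (91.4th percentile of all neighbour distances). The next was 64.1 kb from the Hoxc5 upstream site to 103077847, across Hoxc4 (81.0th percentile). Each end of the cluster was thus next to a long stretch with no optimal peak.

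Before the cluster there were 4 peaks, all between Calcoco1, a gene encoding a coiled-coil coactivator, and Hoxc13. Their summits were at 102753378, 102761964, 102785245 and 102807568, with pooled signals of 155.2, 224.1, 126.7 and 185.8. The one at 102807568 was in an intron of the long noncoding RNA gene Gm36560. The strongest, at 102761964 (114.5 in replicate 1 and 107.4 in replicate 2), had no motif match, while the others had 1 forward and 2 reverse matches.

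After the cluster there were 13 peaks toward Smug1, which encodes a uracil DNA glycosylase, and Cbx5, which encodes the heterochromatin protein HP1α. The first 5, from 103077847 to 103130949, were weak to moderate, with pooled signals of 29.8, 32.2, 40.2, 70.0 and 79.8. The last 8 lay within 25.7 kb, from 103165620 to 103191275, and included the 3 strongest of the window. These 3 had 362.2 at 103165620 (178.0 and 186.7), 421.1 at 103177233 (212.8 and 210.5) and 344.8 at 103182366 (176.9 and 170.3). They exceeded the strongest cluster site in both libraries, with no overlap, and the peak at 103177233 ranked 157th of all optimal peaks. The peak at 103165620 lay 104 bp before the start of a Smug1 transcript and was the third promoter peak of the window.

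By class, 3 window summits lay within 1 kb of a TSS, 1 was in an exon, 3 in introns and 15 between genes. Only 1 of the 22, at 103130949, lay in soft-masked repeat sequence, against 17.4% of all optimal peaks.

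A motif match within 50 bp of the summit, scoring as high as the best 5% of windows 1 kb away, was found at 19 of the 22 peaks, against 82.4% of all optimal peaks and 82.3% of those outside the chromosomes used to refine the matrix. At the score that 1% of flanks reached there were 14 (63.7% of all), 2 of them inside the cluster. The word CCNNNAGNNGGC, on either strand, was in 7 of the 22 (42.4% of all optimal peaks and 1.76% of flanking windows) and in none of the 5 cluster peaks. The shares with a match were close to the genome's. The 2 highest scores of the window, 20.8 and 20.4, were at its strongest peak and at the one ranked 3rd, and the lowest, -2.98, was at the weakest. Other peaks departed from that order, and no correlation of score with signal was computed. The peak with a pooled signal of 362.2 scored 14.2, and those with 224.1 and 195.0 had no match. The site at 103092688 scored 16.5 with a pooled signal of 32.2, and the Hoxc10 upstream site scored 9.51 with 228.0.

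Of the 19 matches, 7 read along the forward strand and 12 along the reverse (49.8% forward over the genome). Inside the cluster 3 of 4 were forward, and beyond it 9 of 12 were reverse. At the score that 1% of flanks reached, 10.2, the cluster kept 2 matches, Hoxc9 to Hoxc8 and Hoxc5 upstream, both forward. The Hoxc10 upstream and Hoxc10 coding matches, at 9.51 and 7.71, fell below it, so their orders given next hold only at the 5% score. Reading from Hoxc13 toward Hoxc4, the Hoxc10 upstream and Hoxc10 coding motifs were convergent, 4365 bp apart. The Hoxc10 coding and Hoxc9 to Hoxc8 motifs pointed away from each other, and the Hoxc9 to Hoxc8 and Hoxc5 upstream motifs pointed the same way, as did the 2 after them at 103077847 and 103092688. The reverse run began at 103113274 and held 8 motifs in a row over 69.1 kb, so the forward motifs of Hoxc8 and Hoxc5 faced toward it. The 3 strongest sites of that run carried these matches, shown for comparison with the cluster sites (capitals, the whole match, reverse strand).
Smug1 transcript start, chr15:103165612-103165630: TGGCCGATAGATGGCGCTC
strongest window peak, chr15:103177231-103177249: TGACCAGCAGGGGGAAGCA
window peak ranked 3rd, chr15:103182367-103182385: TGTCCGGCAGGGGGCGCCC
Their scores were 14.2, 20.8 and 20.4, and the last 2 were above each score inside the cluster.

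The positions of the HoxC sites had counterparts in the other Hox clusters, which descend from the same ancestral cluster. In group 5, Hoxc5, Hoxa5 and Hoxb5 each had an optimal summit just before the TSS, at 117, 83 and 251 bp. The 3 pooled signals were 186.7, 185.5 and 243.1. Hoxa5 measured 99.5 in replicate 1 and 84.2 in replicate 2, and Hoxb5 131.1 and 111.1. All 3 summits had a motif match on the strand of the genes.

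In group 10, Hoxc10, Hoxa10 and Hoxd10 each had an optimal summit before the TSS, at 207, 205 and 147 bp. The signals of these summits were less alike than in group 5. Hoxc10 had 228.0 with a match on the gene strand, Hoxd10 had 59.3 (21.9 and 37.7) and Hoxa10 had 23.1 (12.6 and 10.2), the last 2 with no match. Hoxa10 had a further optimal peak within 1 kb of an annotated TSS, at summit 52240545 in an untranslated exon of the gene. That peak was strong, at 198.9 (104.3 and 95.1), with a match on the gene strand. Outside these groups, 1 Hox gene had an optimal summit within 1 kb of a TSS, Hoxa7, at a secondary start. In all, 5 of the 30 genes of HoxA, HoxB and HoxD had one, against 2 of the 9 Hoxc genes.

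The Hoxc9 to Hoxc8 site also had counterparts. Before Hoxb8 a summit lay at 2953 bp with a pooled signal of 197.6 (102.3 and 94.0), and before Hoxd8 one lay at 2216 bp with 247.3 (128.9 and 117.6). The HoxC value was 261.0 at 3006 bp, and all 3 matches lay on the gene strand. HoxA has no group 8 gene, and its strongest site, 358.7, lay between Hoxa7 and Hoxa9, also with a match on the gene strand. Each of the 3 strongest HoxC sites stood in an interval that was also occupied in at least 2 of the other clusters. Occupied intervals were common there, with 7 of 10 in HoxA, 6 of 9 in HoxB and 4 of 8 in HoxD, so a shared occupied interval is not particular to these sites.

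The site in the coding sequence of Hoxc10 had its counterpart in Hoxd10, at summit 74694226 of chromosome 2, with a pooled signal of 98.8 (41.3 in replicate 1 and 56.7 in replicate 2). Both summits were in coding exons and both motifs ran against the gene. The matches were equal at 17 of 19 bases and the 40 bases around them at 75%. Over the 88 pairs of a HoxC site with a motif match (4) and a site with one in another Hox cluster (22) the median for those 40 bases was 30%, and the next highest was 52.5%. Apart from the Hoxc10 and Hoxd10 sites, only the Hoxb3 site of these pairs lay within a coding span. The median therefore mostly describes noncoding sites, and likeness through shared coding sequence was not tested. The sites before group 5 genes were alike in place. Around the match, the Hoxc5 site was equal to the Hoxb5 site at 35% of bases and to the Hoxa5 site at 30%. These values were at or near the median of 30% over the 88 pairs.

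**Figure D4:**
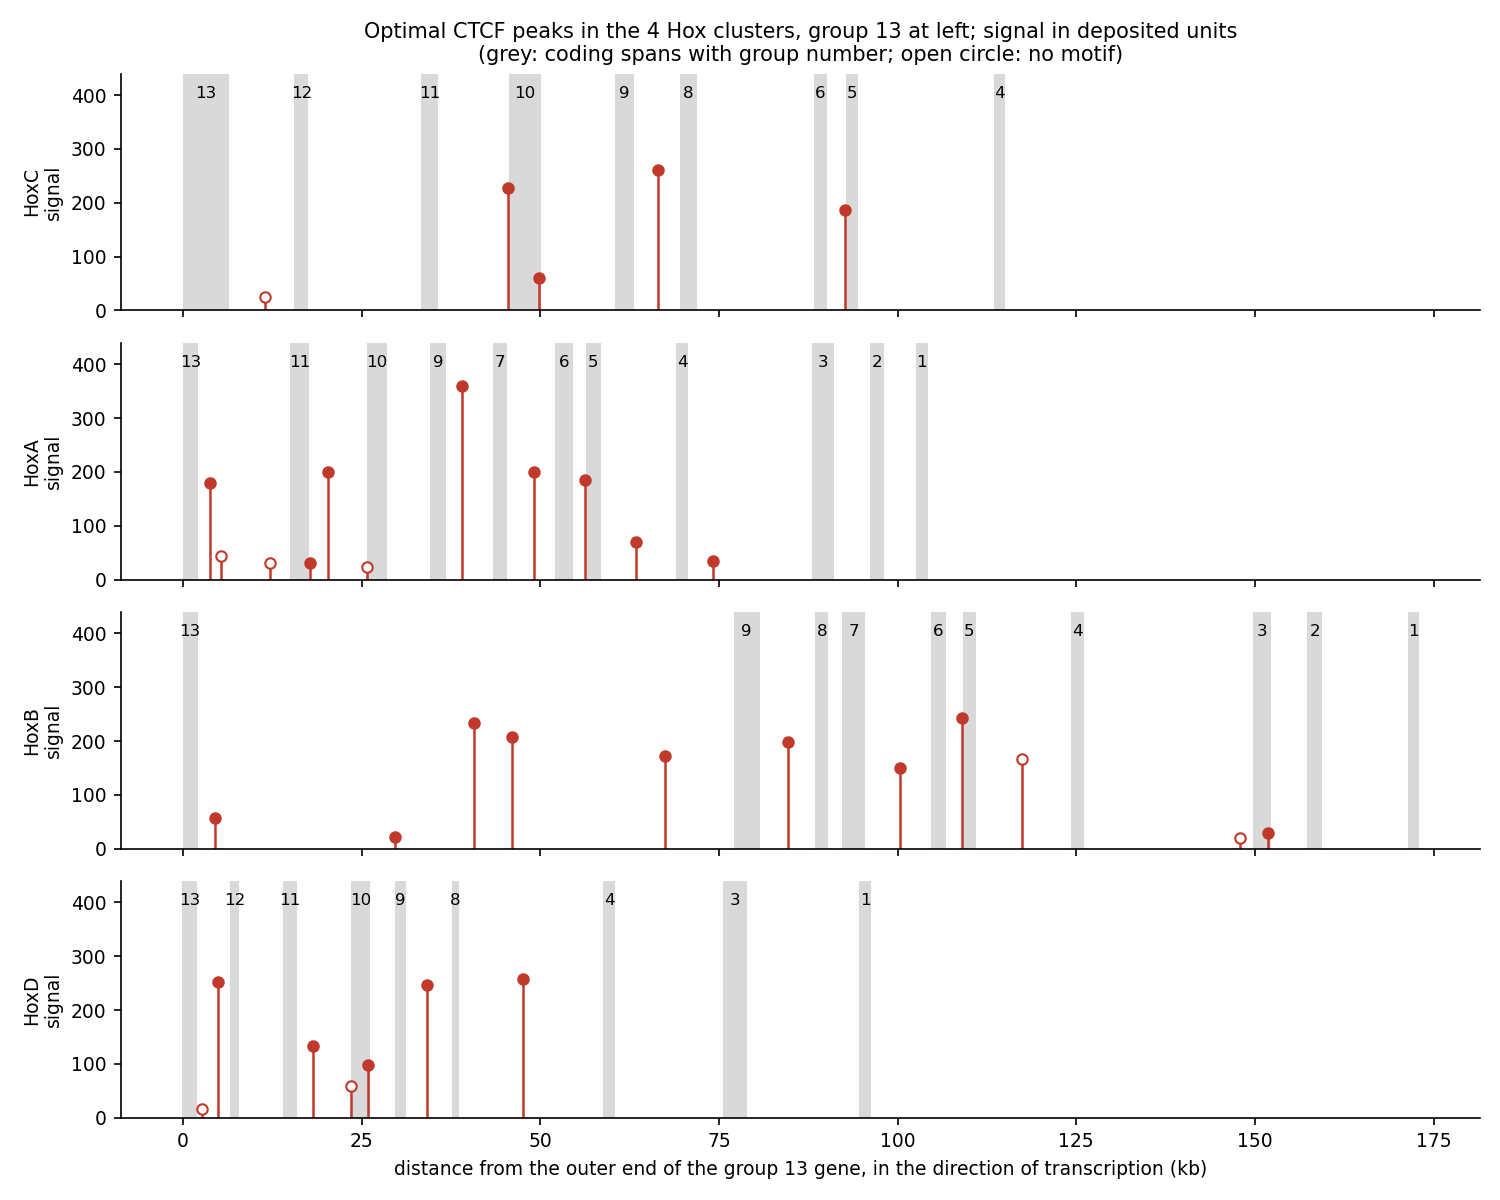
Optimal peaks of HoxC, HoxA, HoxB and HoxD by distance from the outer end of the group 13 gene (horizontal axis, kb, in the direction of transcription) and signal (vertical axis, deposited units); grey bands are coding spans with group numbers and open circles have no motif match. Peaks stand just before group 5 in HoxC, HoxA and HoxB and just before group 10 in HoxC, HoxA and HoxD.

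Peak numbers differed among the clusters. HoxC held 5 optimal peaks (4.32 per 100 kb), HoxA 11 (10.4), HoxB 11 (6.32) and HoxD 7 (7.23). The median signal was 186.7 in HoxC, 69.3 in HoxA, 165.9 in HoxB and 132.5 in HoxD, over few peaks each. The order of the clusters in peaks per 100 kb depended on the list. With the conservative list HoxC had 5.18 peaks per 100 kb against 5.17 in HoxB, and the same 2 values were found without replicate 1. With the strongest pooled peaks HoxC had 6.05 against 6.20 in HoxD, with 7 peaks in HoxC. The HoxC median was 123.0 with the conservative list and 59.4 with the strongest pooled peaks. Medians of the other clusters were not recomputed for those lists, so the order of the medians there is unknown. With 2 libraries and 1 group, no test between clusters was made.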

How the data were processed

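CTCF binding was measured in 2 libraries of 1 group, and 5 deposited peak lists on mm10 were used. Per the notes deposited with the libraries, the filtered reads of a library and 1 other file gave its replicate list, those of both gave the pooled list, and these lists with 1 other file gave the optimal and conservative lists. The aligner, peak caller, control, thresholds and signal normalization were not given in the sources used here. Values of the deposited signal are never below 0. They were compared within a list or after scaling, except that replicate means, SDs and overlaps use unscaled values. The deposited −log10 q-value is capped, and the deposited IDR score was used only to describe peaks. No list gives read counts, so the depth is unknown and no counting interval is given.

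Summits within 100 bp counted as the same site. Replicate ratios are log2 ratios after each library was divided by its median over 48713 matched optimal peaks, with the SD taken within deciles of signal. Genes and coding ends came from GENCODE M21, and sequence from GRCm38.p6, of which mm10 is the browser name; chromosome names matched and no peak passed a chromosome end. An interval runs from 1 coding sequence to the next. Summits within 1 kb of any TSS were classed as promoter, then exon, intron or intergenic. The motif matrix (19 positions) was refined in 10 rounds on 1000 peaks, the strongest of the odd-numbered autosomes other than chromosome 15, and flanking windows were 1 kb away. Matching and motif steps were tested on simulated data, and the interval step was not. Python 3.11.15, numpy 2.4.6, pandas 2.3.3, pysam 0.24.0 and samtools 1.23.1 were used. Alternatives were other lists, the strongest 50% of optimal peaks, each library left out, other distances and other scores.

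Named genes were the 9 Hoxc genes, noncoding genes inside the cluster, the coding gene nearest to each window peak, and Hox genes of the other clusters with a promoter peak or in the same group as such a Hoxc gene. Groups 8 and 9 of the other clusters were added after their values were seen. The members and lists were chosen with earlier results of these data known. The sequence of 1 cluster site is not reported here.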

Additional observations from a re-analysis of the deposited data

How the results depend on the processing

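Of 73 alternative values, 62 stayed within 1.5 times the count or within 1 replicate SD of the value given above, and 11 did not. The window median of 155.6 became 186.2 over the strongest 50% of optimal peaks, and 59.9 to 78.8 with 1 library left out, where the values are on the lower scale of a single replicate list. The cluster median of 186.7, which rests on 5 peaks, became 123.0 with the conservative list, 59.4 with the strongest peaks of the pooled list, 207 over the strongest 50%, and 60.8 to 64.1 with 1 library left out. The genes with a promoter peak went from 2 to 5 within 5 kb. Over the strongest 50%, density fell to 5.70 peaks per 100 kb in HoxA and 4.02 in HoxB, from 10.4 and 6.32.

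The number of window peaks ran from 18 to 25 and of cluster peaks from 4 to 7 over the alternatives, and of empty intervals from 3 to 5. Leaving out replicate 1, or taking the strongest pooled peaks, filled the Hoxc12 to Hoxc11 interval. With intervals drawn from TSS to TSS, 3 of 8 were empty, since the Hoxc10 coding site then fell between Hoxc10 and Hoxc9. With gene records as edges, Hoxc6 and Hoxc5 overlap and leave no interval, and 4 of the other 7 were empty. The conservative list added a peak in a coding exon of Hoxc10 (summit 102967167, 13.6 and 9.49 in the replicates, pooled 21.1) and 1 in Smug1. No paired analysis was possible because there is a single group. The cause of these changes was not tested, and without read counts the depth behind the weak peaks is unknown.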

Other observations

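The motif match in the coding sequence of Hoxc10 was compared with the coding sequences of the 38 other Hox genes, by taking in each the 19 bases most equal to it on the same strand of the gene. This comparison was chosen after the Hoxc10 and Hoxd10 values were seen. The 3 group 10 genes were the most alike, and their bases are given on the strand of the motif, in capitals throughout.
Hoxc10, chr15:102970932-102970950: TAATCTCCAGGCGGCGCTC
Hoxd10, chr2:74694225-74694243: TGATCTCTAGGCGGCGCTC
Hoxa10, chr6:52232631-52232649: TGATCTCTAGGCGCCGCTC
Hoxd10 was equal at 17 bases and Hoxa10 at 16, and the other 36 genes at 14 or fewer, with a median of 12 over the 38. The matrix score was 7.71 in Hoxc10, 8.42 in Hoxd10 and 1.34 in Hoxa10, against 3.39 reached by 5% of flanking windows. Hoxc10 and Hoxd10 had an optimal peak within 100 bp, with pooled signals of 59.4 and 98.8. Hoxa10 had a pooled-list peak of 12.7 that was not in the optimal list. Of the 38 other genes, Hoxd10 alone reached that score at its most equal 19 bases, and it alone had an optimal peak there. The Hoxd10 match and peak were known before the comparison, so they are no separate evidence. Likeness of the group 10 genes through shared coding sequence was not tested.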
